A study of Homo sapiens with 12 samples.

Results

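The BCL2 family genes described here are 10 genes whose proteins decide whether the outer mitochondrial membrane stays intact: the survival genes MCL1, BCL2 and BCL2L1, the pore-forming effectors BAX and BAK1, and the BH3-only death genes BCL2L11, PMAIP1, BID, BAD and BIK. They were chosen by name, and all 10 were found among the 23615 gene rows of the expression tables. Their mRNA was measured by sequencing of poly(A) RNA from HEK293T, a human embryonic kidney cell line that expresses SV40 large T antigen. Cells had been exposed for 18 h to 2 μM CP25, a macrocyclic inhibitor of the mRNA decapping enzyme Dcp2, or to an equal volume of its peptide storage buffer as vehicle. Actinomycin D at 5 μg/mL then stopped transcription. The 4 groups were CP25 after 2 h of actinomycin D, vehicle after 2 h, CP25 at 0 h and vehicle at 0 h, with 3 libraries each. The labels do not say whether the 3 libraries of a group came from separate cultures, so that p-values measure the spread between libraries of a group and nothing wider; this spread may be technical.

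As background, survival members of the family hold the effectors in check by binding them or the BH3-only proteins that activate them. BH3-only proteins respond to stress: BIM, the product of BCL2L11, binds all of the main survival proteins, whereas NOXA, the product of PMAIP1, binds MCL1 by preference. Freed effectors form pores, cytochrome c escapes, and caspases are activated through the apoptosome. MCL1 protein and MCL1 mRNA are both known for rapid turnover, which makes cells that depend on MCL1 sensitive to blocks of transcription. HEK293T cells also carry adenoviral early genes, which include a BCL2-like inhibitor of apoptosis. Decapping by Dcp2 is a step in the degradation of many mRNAs, usually after the poly(A) tail has been shortened.

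AU-rich sequences in 3′ untranslated regions are known to mark many short-lived mRNAs, and the heptamer TATTTAT was therefore located in the 3′ UTRs of the 10 genes. One representative transcript per gene was taken from the GENCODE 29 annotation of GRCh38, and the search ran along the sense strand of the transcript. Of the 10 genes, 4 held the heptamer: MCL1, BCL2, BCL2L1 and PMAIP1. Each site is written below as DNA with its flanks, 5′ to 3′, and with the heptamer in capitals; positions count from 1 at the first base after the stop codon.
MCL1 site at 1551: ccctctacagaTATTTATatcaattccta
MCL1 site at 2166: ttttacctatgTATTTATcgttcttgatc
MCL1 site at 2194: cataagccgctTATTTATatcatgtatct
BCL2 site at 255: aaaaaaagattTATTTATttaagacagtc
BCL2L1 site at 1250: aagcgtgtctgTATTTATgtgtgaggagc
PMAIP1 site at 1219: aggaataatttTATTTATtttgcctattt
PMAIP1 site at 1232: tttattttgccTATTTATaattaaagtat
PMAIP1 site at 1467: ttaccatctggTATTTATggtctaatttg
The sites are shown because the survival gene MCL1 and the death gene PMAIP1, whose mRNAs differed in the share left at 2 h, carry the same number of them.

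MCL1 held 3 heptamers in a 3′ UTR of 2819 nt, and at least as many were present in 7.98% of the 3′ UTRs of similar length (0.8 to 1.25 times) among the genes measured. PMAIP1 held 3 in 1553 nt, a number reached by 3.11% of 3′ UTRs of its length class. BCL2 held 1 in 5279 nt and BCL2L1 held 1 in 1497 nt, where 73.1% and 35.1% of 3′ UTRs of those lengths hold at least 1. The shorter pentamer ATTTA, which lies within every heptamer, occurred 10 times in MCL1, 13 times in BCL2, 5 times in PMAIP1 and 3 times in BCL2L1. At least as many pentamers were present in 24.1%, 48.0%, 31.6% and 52.9% of 3′ UTRs of like length, in the same order of genes. BID held 2 pentamers, BCL2L11 and BIK held 1 each, and BAX, BAK1 and BAD held none. For BCL2L11, which has 25 annotated transcripts, the answer depended on the transcript: the representative 3′ UTR of 817 nt held no heptamer, and the longest annotated one, of 4480 nt, held 2. A match says only that these letters are present.

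The genes lie on chromosome 1 (MCL1), chromosome 18 (BCL2 and PMAIP1), chromosome 20 (BCL2L1), chromosome 19 (BAX), chromosome 6 (BAK1), chromosome 2 (BCL2L11), chromosome 22 (BID and BIK) and chromosome 11 (BAD). Exons of MCL1 overlap the noncoding gene ADAMTSL4-AS1 on the same strand. Exons of BCL2L1, BAK1, BCL2L11 and BAD overlap those of ABALON, GGNBP1, MIR4435-2HG and GPR137 on the opposite strand, and BAK1 has the pseudogenes BAK1P1 and BAK1P2. Because it is not known whether the libraries kept the strand or how shared reads were assigned, the values of these 5 genes may include reads of their partners.

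Expression is given as FPKM, fragments scaled by transcript length and by the mapped fragments of the library, which allows levels to be set against each other per length. Library depth, estimated from the smallest step between FPKM values, was, in units of 1000000 fragments, 24.2 to 28.5 in CP25 at 2 h, 21.7 to 29.2 in vehicle at 2 h, 19.5 to 21.9 in CP25 at 0 h and 13.1 to 19.4 in vehicle at 0 h. At this depth about 2700 to 5300 fragments stood behind each MCL1 value, 132 to 315 behind each BCL2L11 value and 3.36 to 22.3 behind each BIK value. These estimates used the length of the representative transcript, 1522 nt for BCL2L11, and would be higher for a longer transcript. Intermediate filament genes known to be expressed in this line were present (VIM at a mean of 215.9 FPKM, NEFL at 33.5, NEFM at 10.8 and INA at 1.35 over the 12 libraries). All 13 markers of leucocytes, mature kidney, hepatocytes and keratinocytes averaged under 1 FPKM, the highest being the leucocyte marker CD68 at 0.654 FPKM, and CD3E, UMOD and KRT5 were listed at 0 in every library.

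By FPKM, BAX was the most abundant of the 10 mRNAs in all 4 groups, followed by MCL1, PMAIP1, BAK1, BAD, BID, BCL2L1, BCL2L11, BCL2 and BIK. In vehicle at 0 h the means ran from 94.9 ± 12.2 FPKM for BAX and 64.4 ± 1.03 FPKM for MCL1 down to 2.55 ± 0.188 FPKM for BCL2 and 0.236 ± 0.0434 FPKM for BIK (SD, n = 3). Not every neighbour in this order was separated by its libraries. BAK1 overlapped BAD, and BAD overlapped BID, in CP25 at 2 h, and BAD overlapped BID in vehicle at 2 h. At 0 h, PMAIP1 overlapped BAK1 and BAK1 overlapped BAD in both treatments, and BCL2L1 overlapped BCL2L11 in CP25. All other neighbours were apart in all 3 libraries. MCL1 supplied most of the summed mRNA of the 3 survival genes listed, and BCL2, the founding member of the family, very little.

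**Figure D1:**
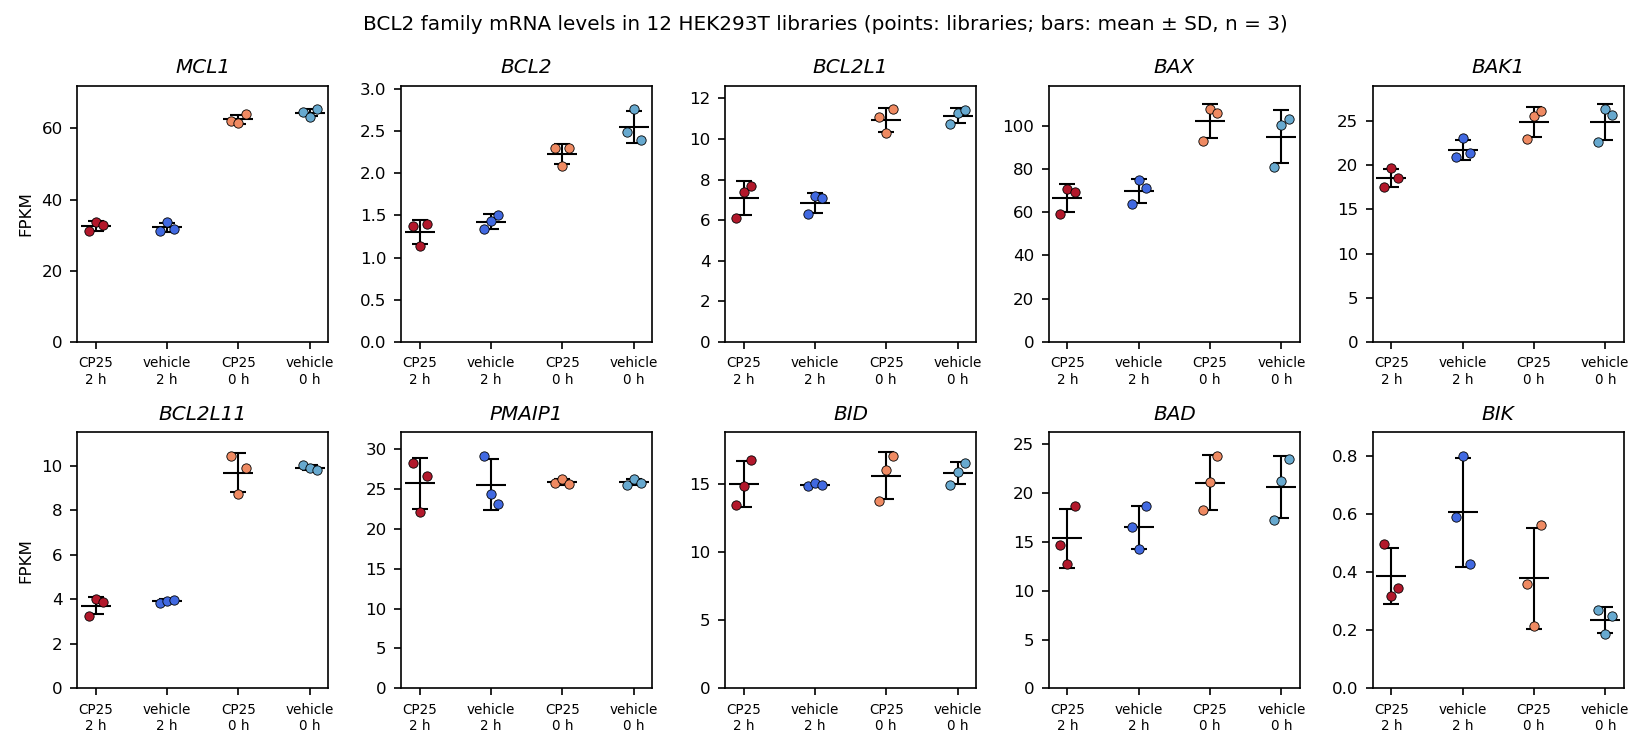
FPKM of the 10 BCL2 family genes in each of the 12 libraries, 1 panel per gene with its own vertical axis starting at 0; points are libraries, bars are the mean ± SD of 3, and groups run from CP25 at 2 h to vehicle at 0 h. MCL1, BCL2, BCL2L1, BAX and BCL2L11 lie lower at 2 h than at 0 h in both treatments without overlap, PMAIP1 and BID do not, and BAK1 at 2 h lies lower in CP25 than in vehicle.

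The first question the design poses is how far each mRNA had declined after 2 h without transcription. FPKM is a share of the library, so that values at 2 h show loss relative to the other mRNAs and not total loss, and in bulk RNA fewer expressing cells and less RNA per cell cannot be told apart. The times were deposited in separate tables and were compared here without a test, as the log2 ratio of group means of FPKM + 1, 2 h over 0 h. Over the 12183 genes averaging at least 1 FPKM this log2 ratio had a median of -0.16 in CP25 and -0.18 in vehicle. Centring each library on its median raised this median by 0.33 in CP25 and 0.35 in vehicle, and ratios are therefore also given relative to the median gene. Of the 10 genes, 9 passed the filter on low values and BIK did not. Their median log2 ratio was -0.49 in CP25 and -0.43 in vehicle.

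Among survival genes, MCL1, which sequesters BAK1 and BH3-only proteins such as BIM and NOXA, had 31.1, 33.7 and 32.7 FPKM in CP25 at 2 h against 62.0, 61.6 and 64.1 FPKM in CP25 at 0 h. In vehicle, it had 31.3, 33.6 and 31.6 FPKM at 2 h against 64.6, 63.4 and 65.4 FPKM at 0 h. All 6 libraries at 2 h lay far below all 6 at 0 h, and the libraries of each group were close to each other. The level left at 2 h was 52.0% of the 0 h mean in CP25 and 49.9% in vehicle, with 48.5% to 54.8% and 47.8% to 53.0% over all pairings of libraries. The MCL1 log2 ratio was -0.92 in CP25 and -0.98 in vehicle, or -0.76 and -0.80 relative to the median gene, and 8.77% and 7.88% of all genes had lower ratios.

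BCL2, which guards mitochondria and the endoplasmic reticulum, was close to the limit of the filter. Its levels were 1.37, 1.14 and 1.40 FPKM in CP25 at 2 h against 2.30, 2.09 and 2.30 FPKM in CP25 at 0 h, and 1.34, 1.43 and 1.51 FPKM in vehicle at 2 h against 2.49, 2.76 and 2.40 FPKM in vehicle at 0 h. BCL2L1, whose main product is BCL-XL, had 6.12, 7.40 and 7.70 FPKM in CP25 at 2 h against 11.1, 10.3 and 11.5 FPKM in CP25 at 0 h, and 6.28, 7.17 and 7.12 FPKM in vehicle at 2 h against 10.7, 11.3 and 11.4 FPKM in vehicle at 0 h. For both genes every 2 h library lay below every 0 h library of the same treatment. BCL2 retained 58.5% of its 0 h level in CP25 and 56.0% in vehicle, and BCL2L1 retained 64.6% and 61.5%. All 3 survival mRNAs among the 10 genes stood below the median gene in both treatments. BCL2L2, a survival gene outside the 10, stood above it, with a relative log2 ratio of 0.19 in CP25 and 0.13 in vehicle. Relative to the median gene, the log2 ratio of BCL2 was -0.33 in CP25 and -0.37 in vehicle. That of BCL2L1 was -0.40 in CP25 and -0.45 in vehicle. The 1 FPKM added before the ratio shrinks that of BCL2 more, as its level is lower. By the share left of the group means, which has no such addition, BCL2 was lower than BCL2L1. Over pairings of libraries the shares overlapped. In CP25 they were 49.5% to 67.1% for BCL2 and 53.3% to 74.8% for BCL2L1. In vehicle they were 48.6% to 62.9% for BCL2 and 54.9% to 66.9% for BCL2L1.

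The effectors BAX and BAK1, the proteins that form the mitochondrial pore, retained a larger share of their 0 h level than MCL1. BAX had 59.2, 70.9 and 69.4 FPKM in CP25 at 2 h against 93.1, 108 and 106 FPKM in CP25 at 0 h, and 64.0, 74.9 and 71.2 FPKM in vehicle at 2 h against 80.9, 101 and 103 FPKM in vehicle at 0 h. It retained 65.1% of its 0 h level in CP25 and 73.8% in vehicle, with no overlap between the times in either. BAK1 had 17.6, 19.6 and 18.6 FPKM in CP25 at 2 h against 23.0, 25.6 and 26.1 FPKM in CP25 at 0 h, and 20.9, 23.1 and 21.4 FPKM in vehicle at 2 h against 22.6, 26.4 and 25.7 FPKM in vehicle at 0 h. The times were apart in CP25, with 74.7% left, and overlapped in vehicle, with 87.5% left. Relative to the median gene the BAK1 log2 ratio was -0.24 in CP25 and -0.01 in vehicle. Replicate 1 had the lowest BAX, BAK1 and BID value in all 4 groups.

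BH3-only mRNAs showed the widest range. BCL2L11, which encodes the activator BIM, had 3.27, 4.01 and 3.89 FPKM in CP25 at 2 h against 10.5, 8.75 and 9.90 FPKM in CP25 at 0 h. In vehicle it had 3.82, 3.94 and 3.99 FPKM at 2 h against 10.0, 9.90 and 9.82 FPKM at 0 h. Every 2 h library lay far below every 0 h library. The share left was 38.4% in CP25 (31.2% to 45.8% over pairings of libraries) and 39.5% in vehicle (38.0% to 40.7%). Its log2 ratio of -1.18 in CP25 and -1.15 in vehicle was the lowest of the 9 genes, and 4.80% and 5.24% of all genes lay lower.

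PMAIP1, which encodes the MCL1 antagonist NOXA, had 28.3, 22.2 and 26.7 FPKM in CP25 at 2 h against 25.7, 26.3 and 25.7 FPKM in CP25 at 0 h. In vehicle it had 29.2, 24.3 and 23.1 FPKM at 2 h against 25.5, 26.3 and 25.7 FPKM at 0 h. The 2 h libraries lay on both sides of the 0 h libraries, and 99.2% of the 0 h mean was left in CP25 and 98.8% in vehicle. Its spread was wider at 2 h, with a coefficient of variation of 12.4% in CP25 and 12.6% in vehicle, against 1.36% in CP25 and 1.45% in vehicle at 0 h. With 3 TATTTAT sites each, MCL1 and PMAIP1 stood on opposite sides of the median gene: relative to it the PMAIP1 log2 ratio was 0.15 in CP25 and 0.16 in vehicle. Of the 10758 genes with an annotated 3′ UTR, the 6.31% with at least 3 such sites had a median log2 ratio of -0.22 in CP25 and -0.32 in vehicle, against -0.15 in both for the 65.9% with none. These classes used 1 representative transcript per gene and were not matched for 3′ UTR length. Whether the sites affect the share left was not tested.

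BID, the link from an initiator caspase to mitochondria, had 13.4, 14.8 and 16.8 FPKM in CP25 at 2 h against 13.7, 16.0 and 17.1 FPKM in CP25 at 0 h, and 14.9, 15.0 and 14.9 FPKM in vehicle at 2 h against 14.9, 15.9 and 16.5 FPKM in vehicle at 0 h. The times overlapped in both treatments, and 96.2% of the 0 h mean was left in CP25 and 94.7% in vehicle. BAD, a BH3-only protein held inactive by phosphorylation, had 14.7, 12.8 and 18.7 FPKM in CP25 at 2 h against 18.3, 21.2 and 23.8 FPKM in CP25 at 0 h, and 16.5, 14.3 and 18.7 FPKM in vehicle at 2 h against 17.2, 21.2 and 23.5 FPKM in vehicle at 0 h. Its times overlapped too, with 72.9% left in CP25 and 80.0% in vehicle. BIK, a BH3-only protein of the endoplasmic reticulum, was at 0.318 to 0.496 FPKM in CP25 and 0.427 to 0.801 FPKM in vehicle at 2 h, against 0.214 to 0.562 FPKM in CP25 and 0.187 to 0.269 FPKM in vehicle at 0 h. These BIK values rest on so few fragments that no ratio is given.

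**Figure D2:**
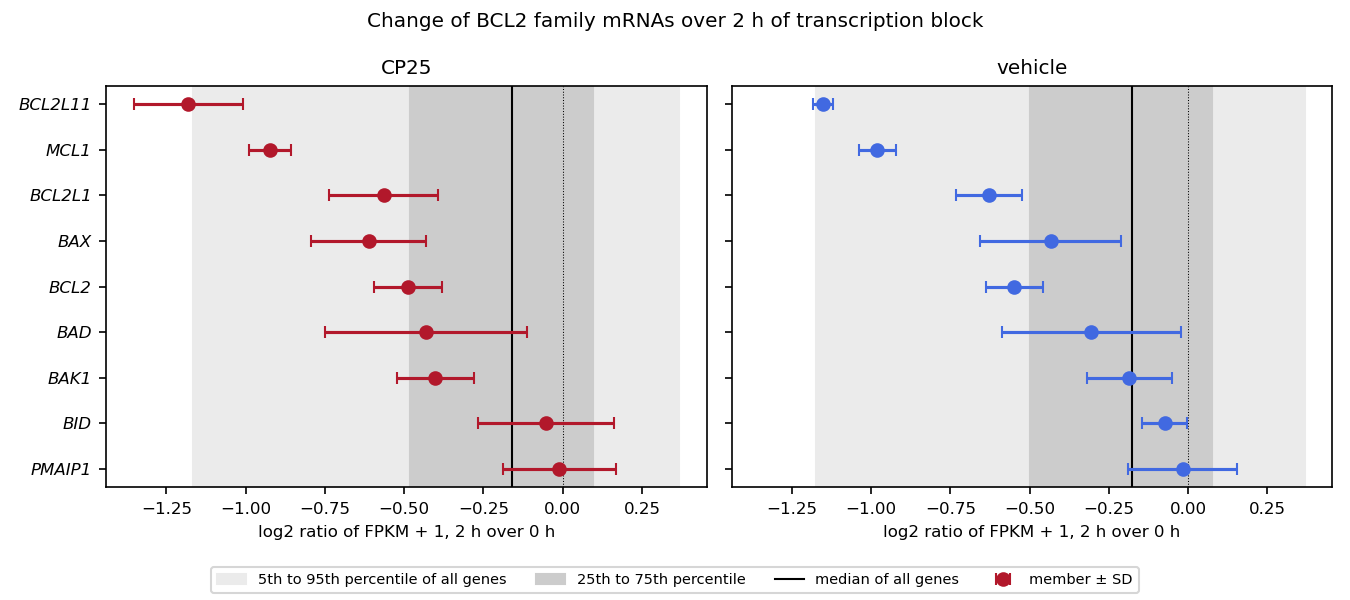
Log2 ratio of mean FPKM + 1 at 2 h over 0 h of actinomycin D for the 9 BCL2 family genes that passed the filter, with CP25 in the left panel and vehicle in the right; points are ratios of group means, bars the SD from 3 libraries per time, and shading the spread of all 12183 genes around their median line. BCL2L11 and MCL1 lie furthest left in both panels, and BID and PMAIP1 lie right of the median.

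Counted over the family, 6 of the 9 genes had all 2 h libraries below all 0 h libraries in CP25 (MCL1, BCL2, BCL2L1, BAX, BAK1 and BCL2L11), and 5 in vehicle (these without BAK1). The same held for 44% of all 12183 genes in CP25 and 46% in vehicle. BCL2L11 alone had a log2 ratio below -1 in each treatment, a level that 7.26% of all genes passed in CP25 and 7.37% in vehicle. MCL1, at -0.92 in CP25 and -0.98 in vehicle, lay just outside. With libraries centred on their medians BCL2L11 had -0.85 in CP25 and -0.81 in vehicle, so that 0 of the 9 genes lay below -1. Relative to the median gene, 7 of the 9 genes were lower and 2 higher (PMAIP1 and BID) in both treatments. After the same centring the log2 ratio of PMAIP1 was 0.31 in CP25 and 0.32 in vehicle, and that of BID was 0.27 in both. The centred ratio of BAK1 was -0.07 in CP25 and 0.16 in vehicle, and that of BAD was -0.11 in CP25 and 0.04 in vehicle. The side of 0 depended on the scaling for PMAIP1 and BID in both treatments and for BAK1 and BAD in vehicle.

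The make-up of the summed mRNA of the 10 genes differed between the times. Survival genes supplied 22.0%, 22.6% and 21.3% of the summed FPKM of the 10 genes in CP25 at 2 h, and 20.6%, 21.2% and 20.8% in vehicle at 2 h. At 0 h, they supplied 29.0%, 26.5% and 27.1% in CP25 and 31.2%, 27.9% and 27.9% in vehicle, so that the times did not overlap. The share of BH3-only genes ran the other way, with 28.9% to 34.3% in CP25 and 29.4% to 34.4% in vehicle at 2 h. At 0 h it was 25.9% to 26.8% in CP25 and 26.4% to 27.3% in vehicle. The summed FPKM of these genes did not rise. It averaged 60.2 in CP25 and 61.5 in vehicle at 2 h, against 72.7 in CP25 and 72.4 in vehicle at 0 h. BH3-only genes outside the 10, such as BBC3, are not in this sum. The survival gene BCL2L2, at a mean of 9.05 FPKM over the 12 libraries, is not in the survival share. It had 102% of its 0 h level left in CP25 and 96.4% in vehicle, with overlap between the times. The effectors' share overlapped between the times, at 43.8% to 48.5% in CP25 and 45.0% to 49.3% in vehicle at 2 h against 44.7% to 47.6% in CP25 and 41.5% to 45.7% in vehicle at 0 h. Within the 2 h libraries the survival share was higher in each CP25 library than in any vehicle library, by a small margin (21.3% to 22.6% against 20.6% to 21.2%). At 0 h the treatments overlapped. The summed survival FPKM at 2 h did overlap, at 38.6 to 42.3 in CP25 and 38.9 to 42.2 in vehicle. The summed FPKM of the effectors at 2 h averaged 85.1 in CP25 and 91.8 in vehicle, with overlap. All shares in this paragraph are ratios within a library, which a scale factor per library leaves as they are. They were not tested, because they restate the values above.

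**Figure D3:**
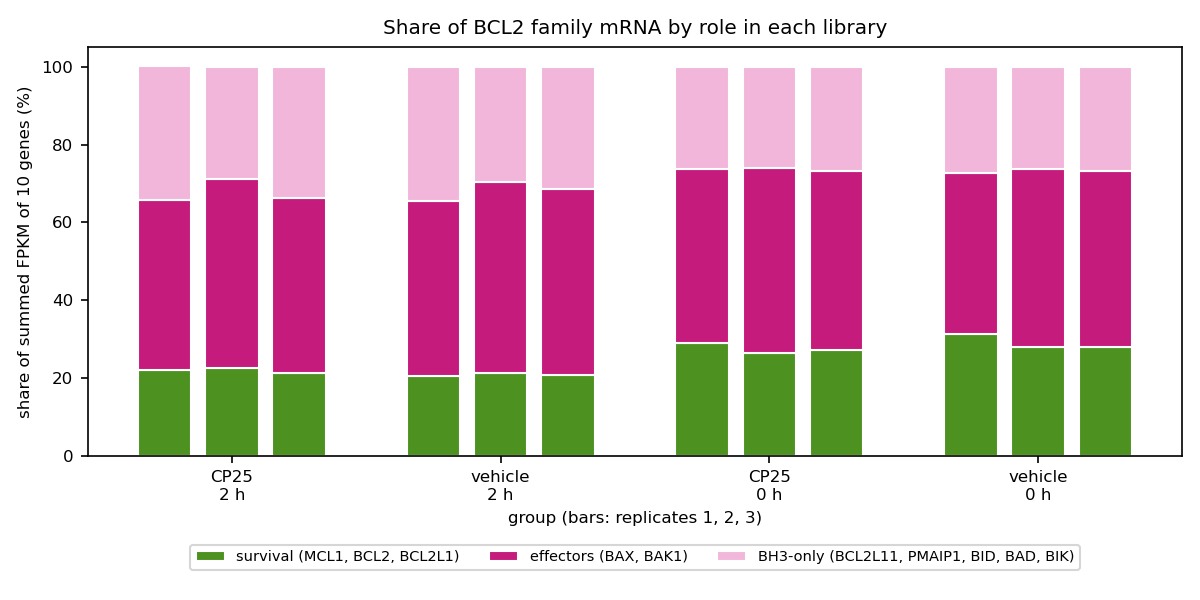
Share of the summed FPKM of 10 BCL2 family genes held by survival genes (MCL1, BCL2, BCL2L1), effectors (BAX, BAK1) and BH3-only genes (BCL2L11, PMAIP1, BID, BAD, BIK), 1 bar per library, ordered from CP25 at 2 h to vehicle at 0 h. The survival share is 20.6% to 22.6% in the 6 libraries at 2 h and 26.5% to 31.2% in the 6 at 0 h.

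Of the summed FPKM of MCL1, BCL2 and BCL2L1, MCL1 made up 78.2% to 80.6% in CP25 and 78.6% to 80.4% in vehicle at 2 h. At 0 h it made up 82.3% to 83.3% in CP25 and 81.9% to 83.0% in vehicle. The ratio of PMAIP1 to MCL1, in FPKM, was 0.910, 0.657 and 0.815 in CP25 and 0.932, 0.724 and 0.730 in vehicle at 2 h. At 0 h it was 0.415, 0.427 and 0.401 in CP25 and 0.395, 0.414 and 0.394 in vehicle. Each library at 2 h had a higher ratio of NOXA mRNA to MCL1 mRNA than any library at 0 h. For BCL2L11 the ratio to MCL1 was lower at 2 h, at 0.105 to 0.119 in CP25 and 0.117 to 0.126 in vehicle, against 0.142 to 0.169 in CP25 and 0.150 to 0.156 in vehicle at 0 h. Neither ratio separated CP25 from vehicle at either time.

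BCL2L11, the gene with a log2 ratio below -1 in both treatments, was compared with all other genes for the likeness of its pattern over the 12 libraries. The closest were NACC2, a transcriptional repressor, and the zinc-finger genes ZNF696 and ZNF473, with a root mean square log2 difference of 0.0584, 0.0597 and 0.0610, against a median of 0.521 over all genes. NACC2 averaged 3.30 FPKM in CP25 and 3.49 FPKM in vehicle at 2 h, against 8.64 FPKM in CP25 and 8.79 FPKM in vehicle at 0 h. The log2 ratios of 2 h over 0 h in CP25 and vehicle were -1.17 and -1.12 for NACC2, -1.17 and -1.12 for ZNF696, and -1.15 and -1.16 for ZNF473. BCL2L11 was picked by this ratio, so the likeness largely restates a similar fall between the times. These genes share the libraries, and the likeness describes the 12 libraries only.

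The next question is whether inhibition of Dcp2 changed the level left after 2 h. None of the 9 genes passed an adjusted p of 0.05 (limma on log2(FPKM + 1), Benjamini-Hochberg over 11745 genes), a threshold passed by 1 gene, or 0.00851% of those tested. BAK1, a pore-forming effector, came closest: its 3 CP25 libraries, at 17.6, 19.6 and 18.6 FPKM, lay below its 3 vehicle libraries, at 20.9, 23.1 and 21.4 FPKM. The means were 18.6 ± 1.03 FPKM in CP25 and 21.8 ± 1.13 FPKM in vehicle (SD, n = 3), and the log2 change was -0.22 with a 95% interval of -0.39 to -0.05. That is 0.860-fold on the FPKM + 1 scale, with an interval of 0.765 to 0.967; the unadjusted limma p was 0.0187 and the adjusted p was 1. BAK1 was the 1 gene of the 9 at an unadjusted p under 0.05, against 0.741% of all genes. That share is below the 0.05 that a calibrated test gives on average when no gene changes. It is therefore not a measure of how rarely such a p-value arises. With the replicate number as a block, 814 of the 11745 genes were under 0.05 by limma, against 87 without it. The shares given below for 0 h and for the difference of effects were low in the same way. CP25 libraries lay entirely below vehicle libraries for 1 of the 9 genes, against 1.75% of all genes, and entirely above for 0 of the 9, against 2.47%. In the authors' deposited table the BAK1 p-value was 0.064.

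MCL1 averaged 32.5 ± 1.33 FPKM in CP25 and 32.2 ± 1.25 FPKM in vehicle at 2 h (SD, n = 3). Its fold was 1.01 with a 95% interval of 0.909 to 1.12, and its groups overlapped. For PMAIP1 the interval was wider, with a fold of 1.01 and bounds of 0.831 and 1.22 around means of 25.7 ± 3.18 FPKM in CP25 and 25.5 ± 3.21 FPKM in vehicle. BCL2L11 averaged 3.72 ± 0.397 FPKM in CP25 and 3.92 ± 0.0910 FPKM in vehicle, a log2 change of -0.06 with an interval of -0.27 to 0.14. The other members had log2 changes of -0.11 (BAD), -0.08 (BCL2), -0.07 (BAX), 0.04 (BCL2L1) and 0.00 (BID), each with an interval that included 0 and an adjusted p of 1 by limma. BIK, not tested, had 0.496, 0.318 and 0.346 FPKM in CP25 and 0.589, 0.801 and 0.427 FPKM in vehicle, which overlapped. The median log2 change of the 9 genes was -0.06, against 0.01 over all genes.

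Before the block, at 0 h, the comparison asks whether 18 h of CP25 had already shifted steady-state levels. None of the 9 genes passed the adjusted threshold, and neither did any of the 12365 genes tested (0%), with 88 genes (0.712%) and 0 of the 9 at an unadjusted p under 0.05 by limma. The libraries of BCL2 did not overlap, at 2.30, 2.09 and 2.30 FPKM in CP25 against 2.49, 2.76 and 2.40 FPKM in vehicle. Its log2 change was -0.14 with an interval of -0.34 to 0.06, and the unadjusted limma p was 0.153 (adjusted p 1). All CP25 libraries were lower for 1 of the 9 genes, against 2.85% of all genes, and all were higher for 0 of the 9, against 1.23%. BAX had the largest positive log2 change, 0.11 with an interval of -0.15 to 0.37, and its groups overlapped (102.3 ± 7.93 FPKM in CP25 and 94.9 ± 12.2 FPKM in vehicle; SD, n = 3). Without vehicle replicate 1 this change was 0.0019. The log2 change was -0.04 for MCL1 (interval -0.17 to 0.08), 0.00 for PMAIP1 (interval -0.11 to 0.12) and -0.03 for BCL2L11 (interval -0.20 to 0.14).

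Whether CP25 altered the loss of an mRNA over the 2 h was tested as the difference of the CP25 effects, 2 h minus 0 h, in a limma fit of all 12 libraries. This difference passed the adjusted threshold for 0 of the 9 genes and for none of the 12183 tested (0%), with 153 genes (1.26%) and none of the 9 at an unadjusted p under 0.05. BAK1 again had the lowest value, -0.22 on the log2 scale with a 95% interval of -0.45 to 0.02 and an unadjusted limma p of 0.0664 (adjusted p 1). At 0 h its means were 24.9 ± 1.67 FPKM in CP25 and 24.9 ± 1.99 FPKM in vehicle. BAX and BAD had differences of -0.19 (interval -0.52 to 0.15) and -0.14 (interval -0.60 to 0.33). Without vehicle replicate 1 at 0 h these were -0.076 for BAX and -0.019 for BAD. MCL1 had a difference of 0.06 (interval -0.11 to 0.23), or 1.04-fold with bounds of 0.926 and 1.17, and BCL2L11 had -0.03 (interval -0.27 to 0.21). For PMAIP1 the difference was 0.01 (interval -0.29 to 0.30).

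**Figure D4:**
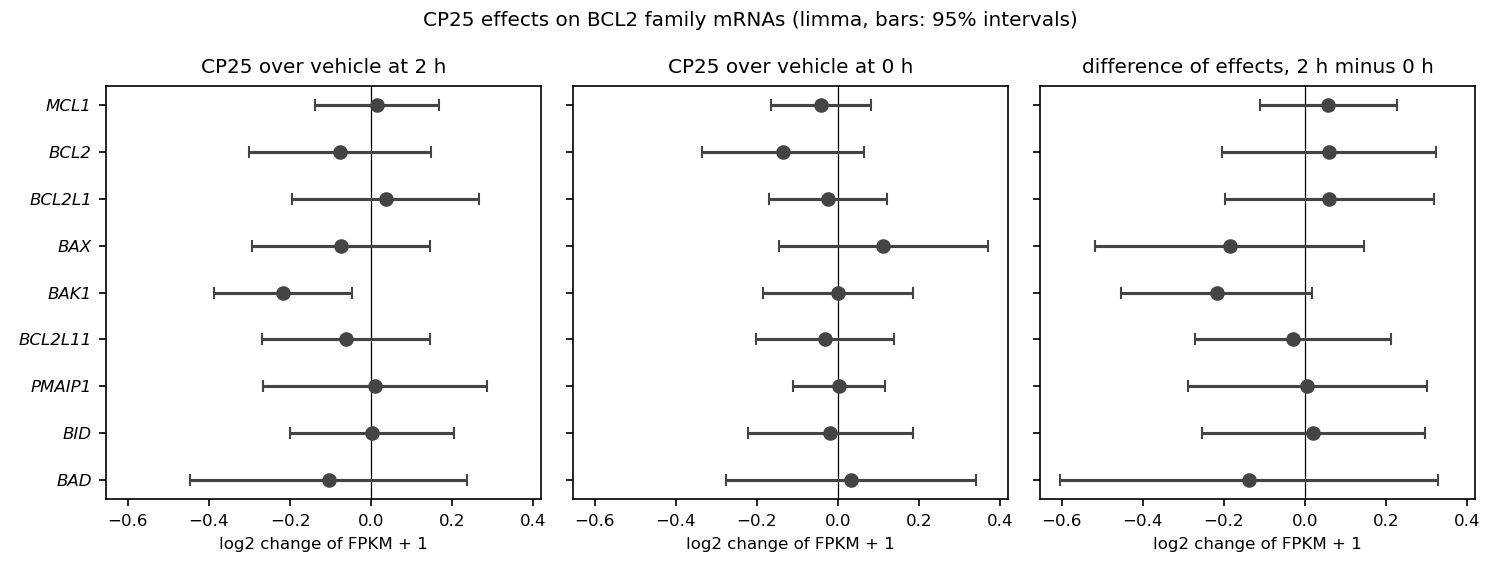
Log2 change of FPKM + 1 for 9 BCL2 family genes from limma, CP25 over vehicle at 2 h (left), CP25 over vehicle at 0 h (middle) and the difference of these effects (right); points are estimates, bars 95% intervals, and the vertical line marks no change. Among the intervals drawn, only that of BAK1 at 2 h leaves out 0, and its adjusted p is 1.

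Other genes of the death pathway were described from lists chosen by role. Of 14 other BCL2 family genes 9 passed the filter, and their median log2 ratio of 2 h over 0 h was 0.02 in CP25 and -0.01 in vehicle. This median depends on which genes are counted in the list. It includes BNIP3, BNIP3L and BECN1, whose ratios were the highest, at 0.52, 0.64 and 0.31 in CP25. In vehicle these were 0.58, 0.62 and 0.35. The BH3-only gene BMF had 37.1% left in CP25 and 46.2% in vehicle without overlap, and the survival gene BCL2L2 had 102% and 96.4% with overlap. BBC3, which encodes the BH3-only protein PUMA, was lowest of the list, with 28.3% of its 0 h level left in CP25 and 34.4% in vehicle (log2 ratios of -1.26 and -1.07). The mitophagy receptor BNIP3L was highest at 159% in CP25 and 157% in vehicle, with pairings of libraries running from 85.4% to 240.0% in CP25. Among 11 genes of the apoptosome, the caspases and their adaptors the median was -0.03 in CP25 and -0.05 in vehicle. FADD, the adaptor that recruits initiator caspases to death receptors, was lowest at 26.9% in CP25 and 30.5% in vehicle, and CYCS, which encodes cytochrome c, was highest at 135% in CP25 and 136% in vehicle.

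Inhibitors of apoptosis and their antagonists, with 7 of 9 genes measured, had a median log2 ratio of -0.35 in CP25 and -0.33 in vehicle. By the mean log2 ratio of both treatments the giant ubiquitin ligase BIRC6 was the lowest of them (75.8% left in CP25 and 64.6% in vehicle), and survivin, BIRC5, was the highest (95.3% in CP25 and 107% in vehicle). In CP25 by itself HTRA2, a mitochondrial protease, was lowest at 68.3%. The 7 mitochondrial channel and released-factor genes had a median of 0.37 in CP25 and 0.32 in vehicle. ENDOG, a nuclease released in apoptosis, was lowest at 48.5% in CP25 and 61.5% in vehicle, and by the mean of both treatments the channel gene VDAC2 was highest at 134% in CP25 and 140% in vehicle. In CP25 by itself OPA1, which fuses inner mitochondrial membranes, was slightly higher at 136%. Of 5 regulators of MCL1 protein turnover (median -0.02 in CP25 and -0.15 in vehicle), FBXW7, a ubiquitin ligase subunit that targets MCL1, was lowest. It was left at 43.0% in CP25 and 43.8% in vehicle, while the deubiquitinase USP9X was left at 104% in CP25 and 95.4% in vehicle.

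Death receptors and their adaptors had the lowest median of the lists, -0.81 in CP25 and -0.75 in vehicle over 5 of 6 genes. The TNF receptor TNFRSF1A was left at 42.2% in CP25 and 42.8% in vehicle, and FAS at 75.8% in CP25 and 87.8% in vehicle. For scale, the short-lived MYC mRNA was left at 10.0% in CP25 and 9.83% in vehicle, and GAPDH at 118% in CP25 and 121% in vehicle. A log2 ratio below -1 was reached in both treatments by BBC3 (1 of 9 genes measured), FADD (1 of 11), FBXW7 (1 of 5) and TNFRSF1A (1 of 5). In each of the other 2 lists it was reached by 0 of 7. The share of all genes below -1 was 7.26% in CP25 and 7.37% in vehicle. In the comparison of CP25 with vehicle, 0 genes of these 6 lists passed the adjusted threshold of limma at 2 h, at 0 h or for the difference of effects. At an unadjusted p under 0.05 there was 1 such gene, the executioner caspase CASP6, whose difference of effects was 0.18 on the log2 scale (limma p 0.0344, adjusted p 1.00). Of all genes, 1.26% were at that level for the difference, 0.741% at 2 h and 0.712% at 0 h.

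**Figure D5:**
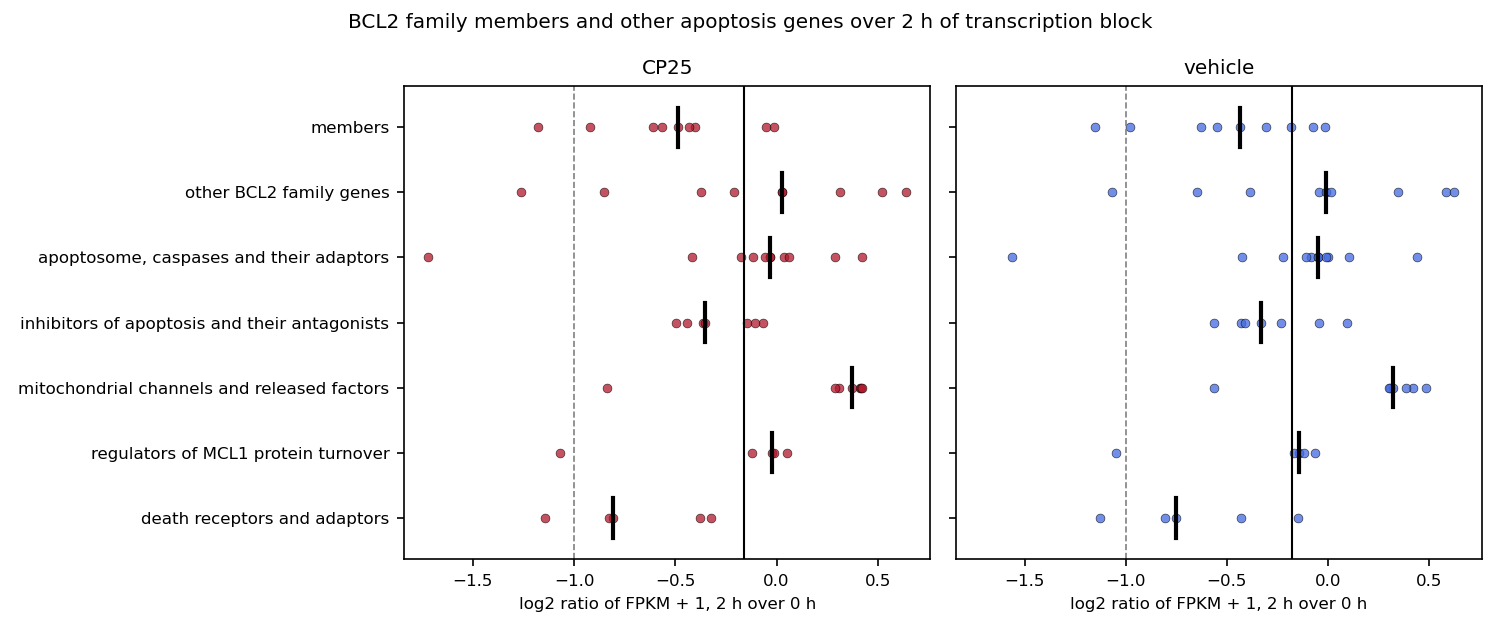
Log2 ratio of mean FPKM + 1 at 2 h over 0 h for BCL2 family members and for 6 lists of other apoptosis genes, CP25 in the left panel and vehicle in the right; each point is a gene, short bars are list medians, the solid line is the median of all genes and the dashed line marks -1. The medians run from -0.81 (death receptors) to 0.37 (mitochondrial channels) in CP25 and from -0.75 to 0.32 in vehicle.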

How the data were processed

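Poly(A) RNA of HEK293T cells was sequenced in 12 libraries, 3 per group, grouped by treatment and time from the labels. The submitters' processing notes name Bowtie2 2.2.3, Trimmomatic 0.36, CASAVA 1.8.2 and the build hg19. Which program and gene annotation gave the FPKM values is not given in the sources. The authors deposited FPKM of every gene and library, separately for each time, and a table per time with group means and a p-value of CP25 against vehicle. No counts were used here, and depth was estimated from the FPKM step of 1 fragment in single-transcript genes of at least 1000 nt. Poly(A) selection sees mRNAs that keep a tail, and FPKM hides any loss common to all mRNAs.

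The deposited FPKM were turned into log2(FPKM + 1), which understates changes of low genes. Genes averaging at least 1 FPKM in the fit were tested with limma 3.58.1 in R 4.3.3 (mean-variance trend, Benjamini-Hochberg over all genes, adjusted p under 0.05). CP25 and vehicle were compared within a table. The difference of effects was the interaction contrast over 12 libraries, in which any scale factor shared by a table drops out. Levels at 2 h against 0 h were described without a test, with a log2 ratio below -1 counted as low. Sequences, 3′ UTR lengths and chromosomes came from GENCODE 29 (GRCh38); since the deposited values rest on hg19, no coordinates are given.

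The 10 genes, the other lists and the tests were chosen with earlier results of these data known. All 10 genes were to be named, and of each other list those that passed a test, had a log2 ratio below -1, or had the lowest or highest mean log2 ratio. BCL2L2, BMF, BNIP3, BECN1, CASP6, HTRA2 and OPA1 were added after their values were seen. Deviations from group means of same-numbered CP25 and vehicle libraries correlated across genes at 0.354, 0.447 and 0.150 at 2 h, all above 0.1, and at 0.261, -0.011 and 0.118 at 0 h. By this rule the numbers pair the libraries at 2 h and not at 0 h. An unlike-numbered pair also passed 0.1 at each time, and the other unlike-numbered pairs did not. These were CP25 replicate 1 with vehicle replicate 3 at 2 h (0.114) and CP25 replicate 2 with vehicle replicate 3 at 0 h (0.134). The rule thus separates paired from unpaired libraries only in part. The pairing comes from the data, as the labels give the number alone. Alternatives were another pseudocount, other filters, median centring, quantile normalization, a replicate block, limma without trend, the authors' p-values, another threshold for a low ratio, and leaving out each library.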

Additional observations from a re-analysis of the deposited data

How the results depend on the processing

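No alternative and no left-out library gave a call for a BCL2 family gene between CP25 and vehicle. With the replicate number as a block, 0 of the 9 genes passed at either time or for the difference of effects. BAK1 then had an unadjusted limma p of 0.0010 at 2 h (adjusted p 0.716) and 0.0014 for the difference (adjusted p 0.271). BAX had one of 0.0336 at 0 h (adjusted p 0.707) and 0.0091 for the difference (adjusted p 0.340). The blocked p-values at 0 h and for the difference assume a pairing at 0 h that the correlation rule did not find. The block left 0, 1 and 0 genes called at 0 h, at 2 h and for the difference, while 857, 814 and 1284 genes had an unadjusted p under 0.05.

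With the authors' p-values 0 genes in place of 1 were called at 2 h. The number of genes called over leave-one-out fits was 1 to 4 at 0 h (4 without CP25_0h replicate 1), 1 to 7 at 2 h (7 without CP25_2h replicate 2) and 0 to 3 for the difference (3 without CP25_0h replicate 2). Signs turned for effects near 0. At 0 h the log2 change of BAK1 was -0.00048 from the authors' means, and at 2 h that of BID was -0.0023 with median centring and -0.0050 with quantile normalization. For the difference, PMAIP1 had -0.011 with centring and -0.0085 with quantile normalization. Without 1 library, the log2 change at 0 h ran from -0.086 to 0.13 for BAD, -0.064 to 0.054 for BAK1, -0.056 to 0.015 for BCL2L1, -0.083 to 0.033 for BCL2L11, -0.082 to 0.066 for BID and -0.0077 to 0.014 for PMAIP1. At 2 h it ran from -0.25 to 0.012 for BAD, -0.14 to 0.0063 for BAX, -0.021 to 0.12 for BCL2L1, -0.11 to 0.0091 for BCL2L11, -0.076 to 0.074 for BID, -0.011 to 0.046 for MCL1 and -0.061 to 0.11 for PMAIP1. For the difference it ran from -0.095 to 0.042 for BCL2L11, -0.064 to 0.093 for BID and -0.064 to 0.11 for PMAIP1, and without a change of sign from -0.25 to -0.076 for BAX and -0.28 to -0.019 for BAD. BAX at 0 h also kept its sign, from 0.0019 to 0.18. BAK1 at 2 h kept its sign, from -0.26 to -0.18, and lost an unadjusted p under 0.05 without Vehicle_2h replicate 2 or without CP25_2h replicate 1.

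For 2 h over 0 h, the number of the 9 genes with a log2 ratio below -1 was 0 in both treatments with median centring, where the members' median was -0.16 in CP25 and -0.084 in vehicle. It was 2 in vehicle with a pseudocount of 0.1, and 1 to 2 in vehicle without 1 library, since MCL1 reached -1.01 without Vehicle_2h replicate 2. With the threshold at -0.5 it was 4 in each treatment, against 23.8% of all genes in CP25 and 24.9% in vehicle. FPKM shows loss relative to other mRNAs, and 3 libraries per group limit what the tests can detect.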
